A study of Mus musculus with 10 samples.

Results

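The TNF (tumour necrosis factor) ligand and receptor superfamily was represented on the arrays by 49 genes, read by 62 of 41174 probes. The members were chosen by gene symbol, as Tnf, the numbered Tnfsf and Tnfrsf genes, the lymphotoxins and their receptor, Fas, Fasl, Cd40, Cd40lg, Cd27, Cd70, Eda, Eda2r and the adaptors Traf1 to Traf7, out of 18539 named genes. No probe was matched to a further 3 genes of that spelling, Edar, Tnfsf13 and Tnfsf13os. The 49 genes comprised 17 ligands, 5 receptors with a death domain, 17 receptors without a death domain, 3 decoy or soluble receptors and 7 adaptors.

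The ligands of this superfamily are trimers held in the cell membrane or shed from it, and each binds its own receptors on the same or a neighbouring cell. Receptors with a death domain can recruit the adaptors Tradd and Fadd and, through caspase 8, start apoptosis, whereas the other receptors bind TRAF proteins, which lead to NF-kB and to stress kinases. In the brain, TNF comes mainly from microglia and astrocytes, and members of the superfamily are known for roles in inflammation, synaptic scaling, axon pruning and the fate of neural progenitors.

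The study fed male C57BL/6J mice, which entered at 3 weeks of age, either a fish oil enriched diet (FD) or a standard diet (SD). The diets ran for 20 weeks, to an age of 5 months, and RNA of the hemibrain was measured. The 10 arrays analysed here carry 2 RNAs each, the hemibrain RNA of a single mouse in Cy-5 and a common RNA in Cy-3. The sample labels give FD for every Cy-5 RNA, but their descriptions read as controls, and the study's methods place mice of both diets on the arrays. The methods also name fewer arrays than the 10 analysed here. The diet of each array is therefore not settled, and FD and SD were not compared. The labels describe the Cy-3 RNA as pooled hemibrain of SD-fed mice, while the methods and the labelling protocol name a commercial reference RNA. All 7 neuronal, all 5 astrocyte and all 5 oligodendrocyte markers were higher in Cy-5, with median log2 Cy-5/Cy-3 of 5.07, 6.86 and 5.43, so the markers bear out hemibrain for Cy-5 and run against it for Cy-3. The Cy-3 RNA is called the common RNA below.

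Every value below is the log2 ratio of Cy-5 over Cy-3, so a positive value means more signal from hemibrain than from the common RNA. No dye was swapped, so dye and RNA cannot be told apart, and the test of a ratio against 0 (limma, n = 10) leaves out the spread of the Cy-3 RNA itself. A gene was called at an adjusted p under 0.05 and a fold of at least 1.5. Because the tissue was taken whole, fewer cells of a type and less RNA per cell cannot be told apart. On 9 arrays, the Cy-5 signal of 68.2% to 76.9% of probes was well above background, against 49.8% on C10-434, where Cy-5 was dimmest. Its median background-subtracted signal was 28.5, against 60.0 to 171 on the other arrays. The arrays lay on 4 slides, of which 2 held 4 arrays each. The pairwise correlations of the arrays over 17659 genes ran from 0.908 to 0.977.

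Fewer members than genes at large were detected in hemibrain RNA. In Cy-5, 19 of the 49 members (38.8%) were well above background on all 10 arrays, against 65.6% of all genes. In Cy-3 the shares were alike, 73.5% of members and 73.2% of all genes. The 7 TRAF adaptors and 4 of the 5 death domain receptors were above background in both dyes on every array. Among ligands, Ltb alone met this mark. A further 9 members, Tnf, Cd40 and Tnfrsf1b among them, missed it in Cy-5 on C10-434 alone. At the other end, 5 members were above background in Cy-5 on no array. These were Tnfrsf14 (HVEM, the receptor of Tnfsf14), Tnfsf10 (TRAIL), Tnfsf18 (the GITR ligand), Cd40lg and Tnfsf4 (the OX40 ligand), of which Cd40lg and Tnfsf4 were below that mark in Cy-3 as well.

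**Figure D1:**
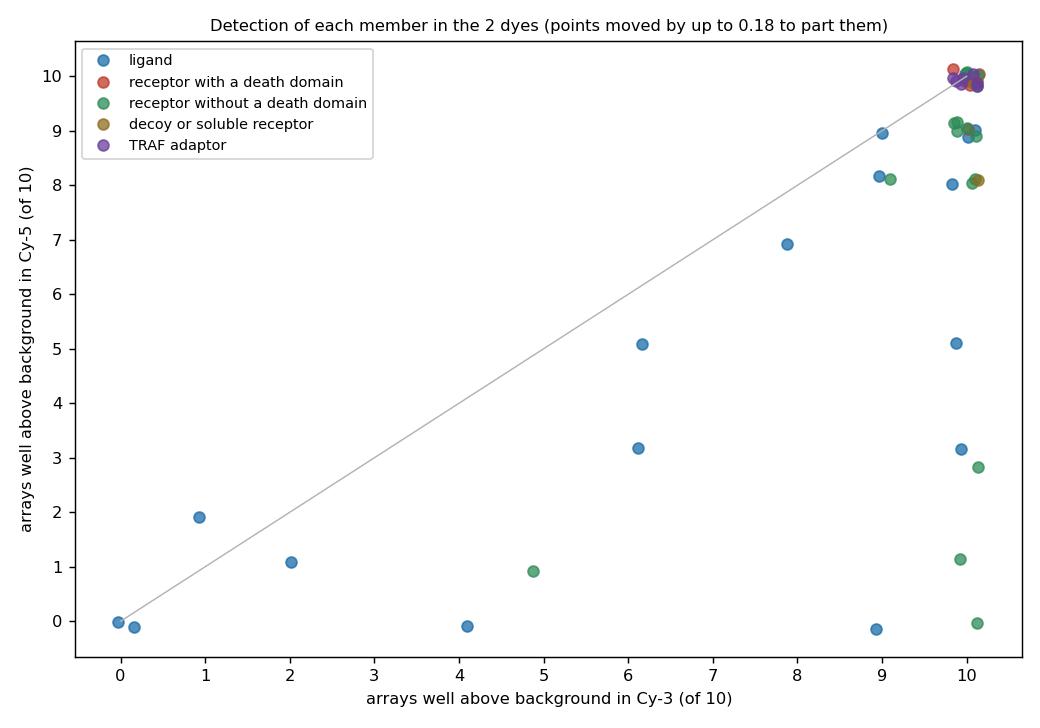
Number of arrays (of 10) on which each member was well above background, in Cy-3 (horizontal axis) and in Cy-5 (vertical axis), coloured by role. The points were moved by up to 0.18 so that members with the same counts can be told apart. Nearly all members lie on or under the diagonal, that is, they were detected on as many or more arrays in the common RNA as in hemibrain, and the TRAF adaptors share the upper right corner.

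Across the 49 members, 31 were lower and 6 higher in hemibrain than in the common RNA, and 12 were not called. Of all 18539 genes, 61.9% were called, 27.4% lower and 34.5% higher. The median over the members was -1.21, against 0.13 over all genes, and it was -0.46 with normexp and -0.66 with subtraction to a floor. The lower side was also the larger among the 19 members above background in both dyes on all arrays, of which 12 were lower and 4 higher, with a median of -1.12. Among the 11372 genes that met this mark, 66.0% were called, 28.2% lower and 37.8% higher, and the median was 0.19. The 6 higher members were Tnfrsf19, Tnfrsf25, Tnfrsf21, Eda, Traf3 and Cd40lg, and the value of Cd40lg is not read further because its probe was above background in neither dye. Without C10-434, 31 members were lower and 6 higher.

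**Figure D2:**
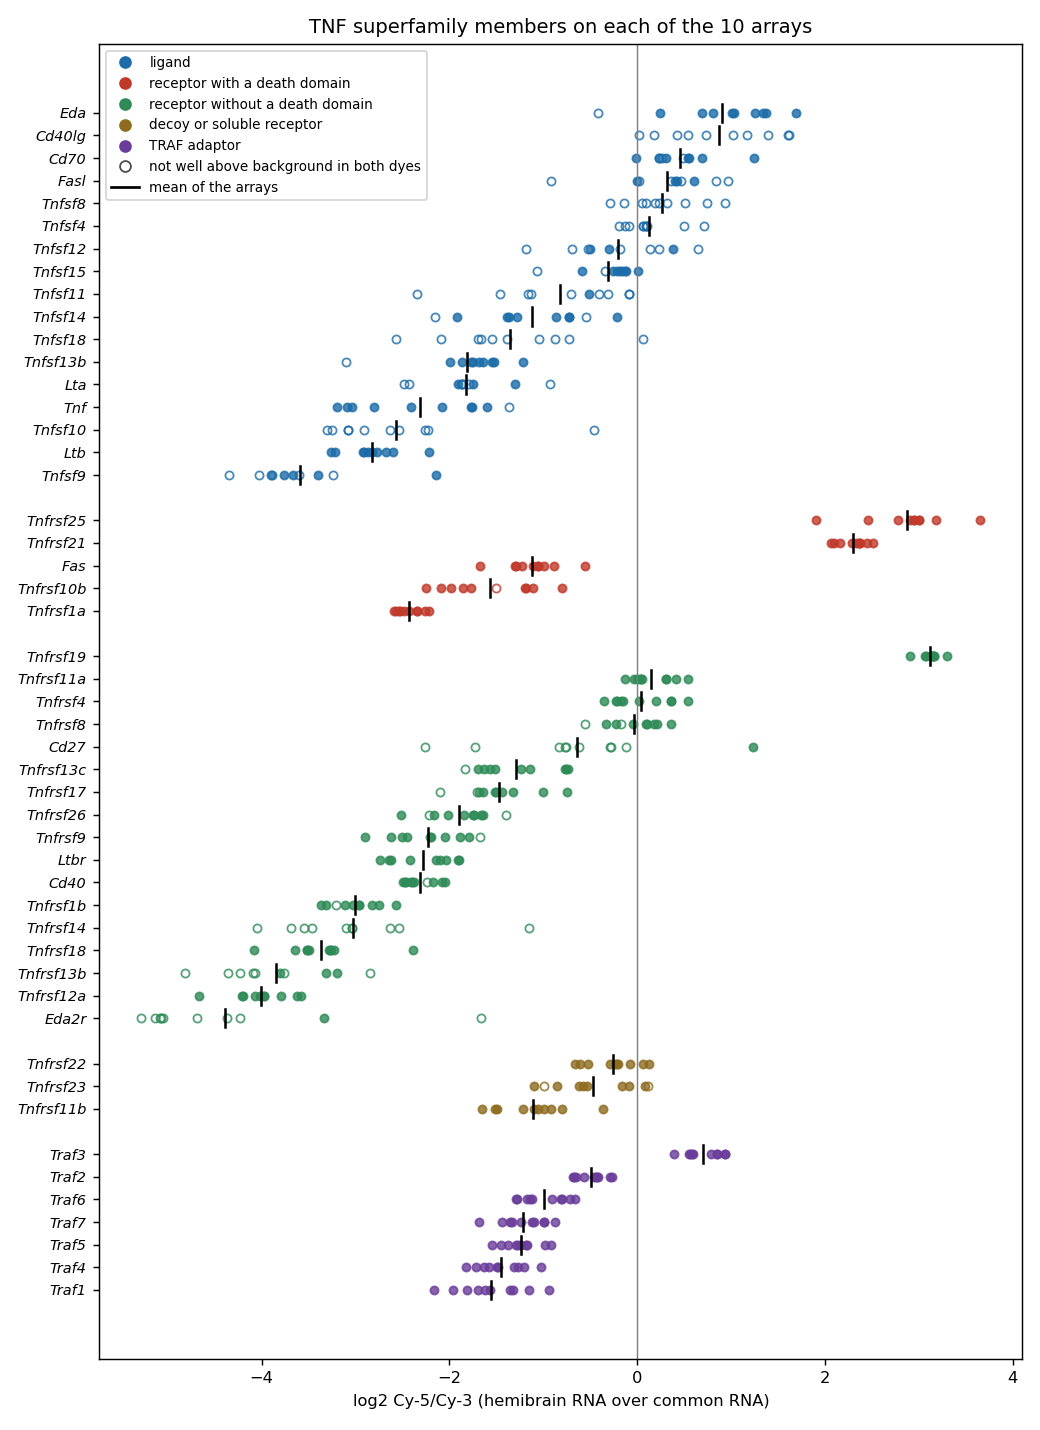
Log2 Cy-5/Cy-3 of the 49 members (rows, grouped by role) on each of the 10 arrays. Filled points are arrays on which the probe was well above background in both dyes, hollow points the others, and black bars the mean of the arrays. Tnfrsf19, Tnfrsf25 and Tnfrsf21 stand right of 0 on every array, and most other receptors and the TRAF adaptors other than Traf3 stand left of it.

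Hemibrain carried more RNA than the common RNA of 3 receptors, each above background in both dyes on all arrays. Tnfrsf19 (TROY), an orphan receptor of astrocytes and neural progenitors that can pair with the Nogo receptor, gave 2.90, 3.14, 3.13, 3.17, 3.30, 3.07, 3.08, 3.12, 3.16 and 3.15 on C10-413, C10-415, C10-416, C10-417, C10-423, C10-424, C10-425, C10-434, C10-435 and C10-437. Its mean was 3.12 ± 0.10 (SD, n = 10), an 8.72-fold difference (limma adjusted p = 2.8e-14). The SD of Tnfrsf19 over arrays was lower than that of all but 1.56% of the genes measured as well. Tnfrsf21 (death receptor 6), which is known for a part in axon pruning and in the timing of myelination, gave 2.29, 2.37, 2.52, 2.33, 2.16, 2.36, 2.45, 2.36, 2.10 and 2.06 on the arrays in the same order. All 10 values lay within 0.45 of each other, and the mean was 2.30 ± 0.15 (SD, n = 10), with a limma adjusted p of 9.2e-13.

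Tnfrsf25 (death receptor 3, the receptor of Tnfsf15) was higher in hemibrain but spread more widely over the arrays. It gave 1.90, 2.91, 2.95, 3.00, 2.95, 2.45, 3.18, 3.66, 3.00 and 2.78 in the same array order. C10-413 was lowest and C10-434 highest, and the other 8 arrays lay between 2.45 and 3.18. The mean was 2.88 ± 0.46 (SD, n = 10; limma adjusted p = 2.6e-10), and the SD was above that of 92.5% of genes. A second Tnfrsf25 probe, above background on 8 arrays in each dye, had a mean of 1.01, in the same direction.

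The remaining death domain receptors were lower in hemibrain. Tnfrsf1a, the main receptor of soluble TNF, ran from -2.59 to -2.22 with a median of -2.46, 5.39-fold lower on average (limma adjusted p = 3.6e-13). This is a narrow band, and only 5.78% of genes had a smaller SD. Fas, the receptor of Fas ligand, ran from -1.67 to -0.55 with a median of -1.09 (limma adjusted p = 1.1e-07). Tnfrsf10b, the mouse TRAIL receptor, ran from -2.25 to -0.80 with a median of -1.63 (limma adjusted p = 2.5e-07).

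The lowest values among members above background in both dyes on all arrays belonged to Tnfrsf12a, Tnfrsf18 and Ltb. Tnfrsf12a (Fn14), the receptor of the cytokine TWEAK and known to be induced by growth factors and injury, gave -3.97, -4.06, -3.79, -3.98, -4.67, -4.02, -3.58, -3.62, -4.21 and -4.19 in the array order above. The mean was -4.01 ± 0.32 (SD, n = 10), 16.1-fold lower (limma adjusted p = 5.0e-13). Of the genes measured as well, 1.01% had a lower mean. Tnfrsf18 (GITR), a costimulatory receptor of T cells, gave -4.08, -3.23, -3.65, -3.50, -3.52, -3.29, -3.27, -2.39, -3.26 and -3.52. C10-434 stood above the other 9 arrays, and the mean was -3.37 ± 0.43 (SD, n = 10; limma adjusted p = 2.9e-11). Ltb (lymphotoxin beta), a membrane ligand of lymphocytes, gave -3.26, -2.60, -2.91, -2.68, -2.92, -2.77, -2.87, -2.22, -2.83 and -3.22. Its mean was -2.83 ± 0.30 (SD, n = 10; limma adjusted p = 8.6e-12). Ltbr, the receptor through which Ltb acts, had a value on 9 arrays, from -2.74 to -1.89, with a limma adjusted p of 9.8e-10.

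**Figure D3:**
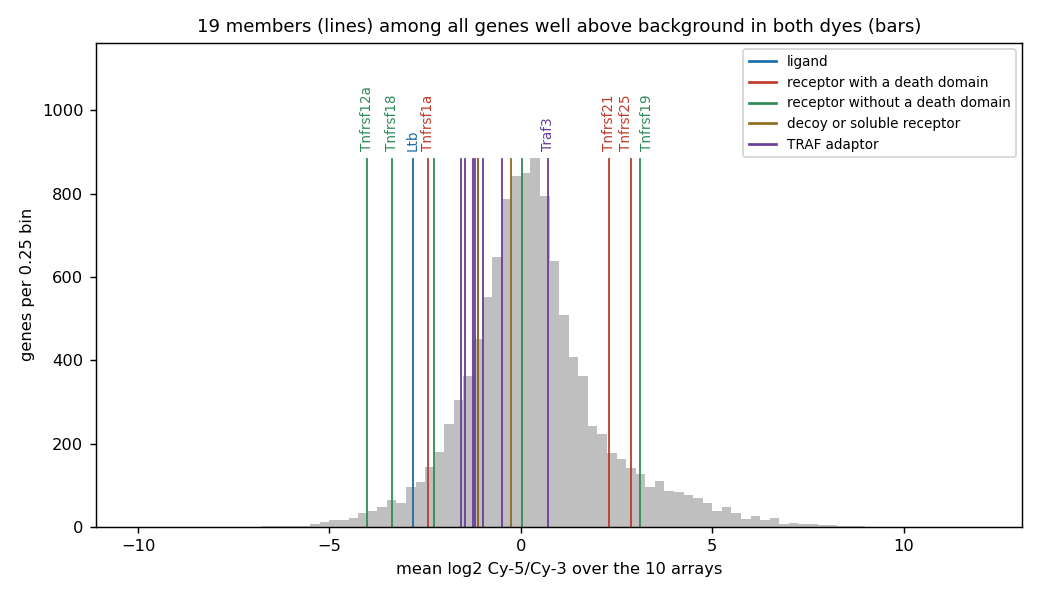
Mean log2 Cy-5/Cy-3 over the 10 arrays for the 19 members above background in both dyes (coloured lines, by role) over a histogram of the 11372 genes that met the same mark (grey bars, genes per bin of 0.25). Tnfrsf12a, Tnfrsf18, Ltb and Tnfrsf1a lie in the left tail, and Tnfrsf21, Tnfrsf25 and Tnfrsf19 on the right shoulder.

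Receptors of lymphocytes made up much of the group without a death domain. Of its 17 members, 13 were lower in hemibrain, 1 was higher and 3 were not called. The receptors of the B cell cytokine BAFF (Tnfsf13b) were all lower, with means of -1.29 for Tnfrsf13c, -1.47 for Tnfrsf17 and -3.85 for Tnfrsf13b. Tnfrsf13b was above background in Cy-5 on 3 arrays. With normexp the calls of Tnfrsf13c (-0.39) and Tnfrsf17 (-0.49) were lost, and Tnfrsf13b was at -1.23. BAFF itself had a mean of -1.81, and of -0.82 with normexp. Cd40, which B cells and microglia use to receive T cell help, ran from -2.49 to -2.05, and Tnfrsf9 (4-1BB) from -2.90 to -1.68. Their means of -2.31 and -2.23 were -0.80 each with normexp. Tnfrsf14 was above background in Cy-5 on no array, and its signal after loess on the processed signals was at least 3.71-fold lower in Cy-5 than in Cy-3. That bound holds for those signals alone, since the log2 ratio was -0.54 with normexp, where the call was lost, and -0.78 with subtraction to a floor. The T cell receptors Tnfrsf4 (OX40) and Tnfrsf8 (CD30) and the osteoclast receptor Tnfrsf11a (RANK) were not called, with medians of -0.065, 0.024 and 0.044. Cd27, above background in Cy-5 on 1 array, had a mean of -0.64 that ran from -2.26 to 1.23. It was called at a limma adjusted p of 0.037, and the call was lost when C10-415, C10-416, C10-423, C10-425, C10-435 or C10-437 was left out.

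Beside these values stand the lymphocyte markers. Of 8 markers, 3 were lower in hemibrain (Ms4a1 -6.70, Cd3g -4.60 and Lck -2.80), none was higher, and the others ran from 0.060 to 0.33. Only 1 of the 8, Cd3e, was above background on every array in Cy-5. All 8 microglial markers met that mark, and 6 of them were higher in hemibrain, with a median over the list of 1.34. The part of cell composition in the members' ratios was not tested.

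Among the 17 ligands, 9 were lower in hemibrain, 2 were higher (Eda and Cd40lg) and 6 were not called. Eda (ectodysplasin), which patterns hair, teeth and glands, ran from -0.42 to 1.69 with a median of 1.02, and 9 of 10 arrays were above 0. Its mean was 0.90 ± 0.62 (SD, n = 10; limma adjusted p = 0.00036), and the call was lost with normexp (0.22) and with subtraction to a floor (0.38). Eda2r, the receptor of a splice form of ectodysplasin, was on the other side, from -5.28 to -1.66 with a median of -4.87. It was above background in Cy-5 on 1 array. Tnfsf9 (the 4-1BB ligand) ran from -4.34 to -2.14 with a median of -3.71, above background in Cy-5 on 5 arrays. The means of Eda2r (-4.39) and Tnfsf9 (-3.60) were -1.13 and -1.29 with normexp. With subtraction to a floor they were -1.66 and -1.83. Tnfsf10 (TRAIL), above background in Cy-5 on no array, was at least 2.34-fold lower in Cy-5 than in Cy-3 after loess on the processed signals. Its log2 ratio was -0.46 with normexp, where the call was lost, and -0.68 with subtraction to a floor. For Tnfsf18 no fold can be given, since the bound lay under 1. Lta (lymphotoxin alpha) ran from -2.49 to -0.93, above background in Cy-5 on 3 arrays. Its call was lost with normexp (-0.44). The ligands Cd70, Fasl, Tnfsf8, Tnfsf4, Tnfsf12 and Tnfsf15 were not called and had means between -0.31 and 0.45. Fasl was called higher when the mean of its 2 probes was taken (0.82, limma adjusted p = 3.6e-06). Tnfsf12 (TWEAK) is the ligand of the far lower Tnfrsf12a, and it ran from -1.18 to 0.65, above background in Cy-5 on 3 arrays.

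Among the decoy and soluble receptors, Tnfrsf22 and Tnfrsf23 lay nearer to 0 than Tnfrsf11b. Tnfrsf11b (osteoprotegerin), which binds RANKL and keeps it from RANK, gave -1.22, -1.50, -1.51, -1.09, -1.06, -0.80, -0.99, -0.36, -1.65 and -0.92 in the array order above. C10-434 was again the highest array, and the mean was -1.11 ± 0.38 (SD, n = 10; limma adjusted p = 1.0e-06). Tnfrsf22 and Tnfrsf23, mouse decoy receptors of TRAIL, ran from -0.66 to 0.13 and from -1.10 to 0.12, and neither reached the fold of 1.5. Tnfrsf23 was called lower without loess (-0.69), with median centring and in the authors' table. Tnfrsf22, Tnfrsf23 and Tnfrsf26 are close relatives that lie side by side on chromosome 7, and whether their probes share signal was not tested.

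The TRAF adaptors, which carry the signal from most of these receptors into the cell, differed from each other in direction. Traf3, which holds the alternative NF-kB pathway in check, was higher in hemibrain. Its values ran from 0.40 to 0.94 with a median of 0.69, all 10 above 0, and the mean was 1.63-fold higher (limma adjusted p = 5.1e-07). It fell short of a fold of 1.5, at 0.54, without loess, with median centring and in the authors' table. Traf2, the partner of Tradd and the cIAP ligases, ran from -0.69 to -0.27, passed the adjusted p (6.5e-06) and missed the fold. Those same 3 settings brought it past the fold, at -0.65 without loess. The other 5 adaptors were lower in hemibrain, with means of -0.99 for Traf6, the ligase of RANK, CD40 and Toll-like receptor signals, -1.21 for Traf7, -1.24 for Traf5, -1.45 for Traf4 and -1.56 for Traf1. The call of Traf6 was lost with normexp (-0.51) and at a fold of 2. Each of the 5 was below 0 on all 10 arrays.

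Of the receptors and adaptors of the superfamily that the symbol spelling leaves out, Ngfr, the low affinity neurotrophin receptor, was higher in hemibrain with a mean of 2.42, Edaradd and Nradd were lower and Relt was not called. Of 15 genes of the death and survival complexes, 10 were lower and none higher, with a median of -1.61. The lowest were the necroptosis genes Mlkl (-4.69) and Ripk3 (-4.68) and the apoptosis initiator Casp8 (-3.58), and the cIAP ligase Birc2 (0.51) was the highest without reaching the fold. Of 20 measured genes of the NF-kB pathway, 14 were lower and 1 higher, with a median of -1.20. Traf3ip2 (-3.60), Nfkb2 (-3.34) and Bcl3 (-3.34) were lowest, and Ikbkg, the regulatory subunit of the IkB kinase, was higher (1.42). Of 4 measured genes for shedding and trimming of ligands, 3 were lower, among them Adam17 (-2.54), the protease that frees TNF from the membrane. Beside each of these lists, 27.4% of all genes were lower and 34.5% higher, with a median of 0.13. The lists were chosen with earlier results of these data known.

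Several members were read by more than 1 probe, and the probes did not always give like values. The pair for Tnfrsf21 had means of 2.30 and 2.33, and the pair for Traf4 -1.45 and -1.20. Tnfrsf1b, the TNF receptor of immune and glial cells, had means of -3.01 and -0.080 on its brighter and dimmer probes, which name the same transcript and were above background in Cy-5 on 9 and 10 arrays. Its 2 probes did not overlap over the arrays, from -3.36 to -2.56 against -0.34 to 0.12, so the size of its ratio depends on the probe, and the mean of both was -1.54 and was called lower. The 3 probes of Eda2r, each named for a different transcript, had means of -4.39, -2.17 and -1.47. The probes of Tnfrsf11a differed in sign, at 0.15 and -0.64, and those of Fasl had means of 0.32 and 1.32. Means were -1.57, -2.91 and -2.76 for the 3 probes of Tnfrsf10b, -2.23 and -4.67 for Tnfrsf9, and -1.12 and -0.39 for Fas. The last-named probe of Tnfrsf10b and of Tnfrsf9 was above background in Cy-5 on no array, and that of Fas on 1. The cause of these differences was not tested.

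Some members are neighbours in the genome, as given by RefSeq for GRCm38.p6. Ltb, Tnf and Lta lie next to each other on chromosome 17 with 0 protein-coding genes between them. All were lower in hemibrain, with means of -2.83, -2.31 and -1.82. With normexp Ltb was at -2.25 and Tnf at -0.85, and Lta was not called. On chromosome 4, Tnfrsf4 and Tnfrsf18 are adjacent and gave means of 0.037 and -3.37. Tnfsf4, Tnfsf18 and Fasl form a run on chromosome 1, and none of these ligands was above background in Cy-5 on more than 5 arrays.

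Promoters differ in their content of CpG, the dinucleotide that is dense in the promoters of broadly used genes and sparse in those of many tissue-restricted ones. RefSeq entries (GRCm38.p6) were matched for 39 of the 49 members, and CpG was counted in the 250 bases before the first listed start. Members above background on all 10 arrays in Cy-5 had a median of 11 CpG (n = 17, from 2 to 49), those above it on 1 to 9 arrays a median of 8 (n = 19, from 3 to 31), and those above it on no array a median of 5 (n = 3, from 2 to 6). Over all genes with an entry the medians were 16, 5 and 2. Of the members detected throughout in Cy-5, Traf3 had the most CpG and Tnfrsf18 the fewest. Both are shown 5′ to 3′ in the direction of the gene, the 250 bases before the start, with each CpG in capitals. The Traf3 promoter is at chr12:111166120-111166369 (plus strand), and that of Tnfrsf18 at chr4:156026072-156026321 (plus strand).
Traf3: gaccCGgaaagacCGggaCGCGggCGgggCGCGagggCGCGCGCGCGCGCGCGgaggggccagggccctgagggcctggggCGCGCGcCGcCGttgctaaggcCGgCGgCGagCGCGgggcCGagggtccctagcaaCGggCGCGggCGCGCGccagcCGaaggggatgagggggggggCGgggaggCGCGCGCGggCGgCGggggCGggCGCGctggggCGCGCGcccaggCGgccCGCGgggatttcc
Tnfrsf18: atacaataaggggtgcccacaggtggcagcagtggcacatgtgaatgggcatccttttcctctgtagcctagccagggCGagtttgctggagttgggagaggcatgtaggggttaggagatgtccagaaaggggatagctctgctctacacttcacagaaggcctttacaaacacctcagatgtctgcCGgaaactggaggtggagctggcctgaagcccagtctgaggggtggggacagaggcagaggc

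**Figure D4:**
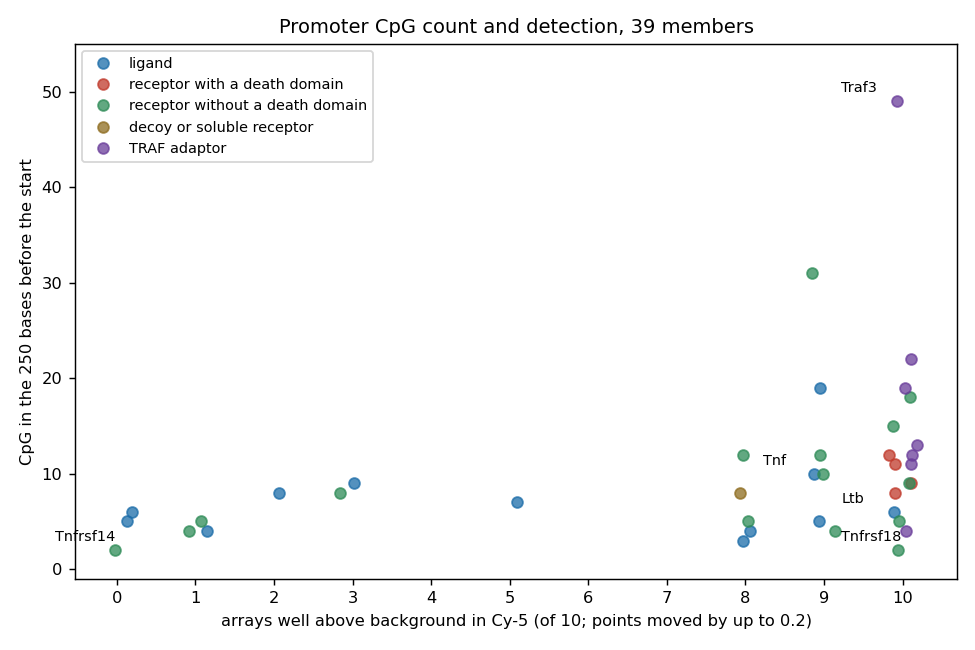
CpG count in the 250 bases before the start (vertical axis) against the number of arrays on which the member was well above background in Cy-5 (horizontal axis, points moved by up to 0.2), for the 39 members with a promoter entry, coloured by role. Members with over 12 CpG were above background on 9 or 10 arrays, but members with few CpG, such as Tnfrsf18 with 2, were also found there.

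The Tnf promoter is shown for the TATA box, the element that places the start of transcription in many induced genes. The letters TATAAA were searched on both strands in the 250 bases before all 32851 listed starts and were found in 12.4% of them, and among the 39 members in 7, Eda2r, Lta, Tnf, Tnfrsf17, Tnfrsf23, Tnfsf11 and Tnfsf18. A match is a description of the letters and not of a bound site. The Tnf promoter (chr17:35202008-35202257, minus strand, shown 5′ to 3′ in the direction of the gene) has TATAAA in capitals from position -29, counted back from the start.
Tnf: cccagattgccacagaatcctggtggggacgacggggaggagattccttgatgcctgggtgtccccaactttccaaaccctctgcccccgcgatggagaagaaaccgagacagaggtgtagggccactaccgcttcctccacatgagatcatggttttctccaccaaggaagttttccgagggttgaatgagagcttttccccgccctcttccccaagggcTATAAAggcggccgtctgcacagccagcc

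The arrays were also compared by slide, as the only batch in the files that held several arrays. The slide of C10-415, C10-416, C10-417 and C10-423 was set against that of C10-424, C10-425, C10-434 and C10-435. The slides hold different mice whose diet is not settled, so slide, animal and diet cannot be told apart. Of the 49 members, 1 was called and it was higher on the slide of C10-424, against 0.374% of 18425 genes tested (0.147% higher and 0.228% lower on that slide). This was Tnf, which gave -2.41, -3.19, -3.09 and -2.80 on the former slide and -1.59, -1.76, -1.37 and -1.77 on the latter. The slides did not overlap, and the difference was 1.25 ± 0.20 (SE, n = 4 and 4; limma adjusted p = 0.042). C10-413 and C10-437, alone on their slides, gave -3.04 and -2.08. In Cy-3 the level of Tnf ran from 9.29 to 9.34 on the former slide and from 9.38 to 9.48 on the latter, and in Cy-5 it ran from 6.12 to 6.88 on the former slide and from 7.63 to 8.11 on the latter.

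The Tnf call was not a firm one. It was lost when any of the 8 arrays was left out (limma adjusted p from 0.058 to 0.12, difference from 1.14 to 1.41), and the difference shrank to 0.28 with normexp and to 0.37 with subtraction to a floor. Tnf was not well above background in Cy-5 on C10-434, and without that array the difference was 1.17 (limma adjusted p = 0.070). At an unadjusted p under 0.05 there were 8 members of 49, against 8.71% of all genes, and 7 of the 8 were higher on the slide of C10-424. The slides did not overlap for 5 members, against 6.06% of genes with a value on all 8 arrays. Beside Tnf these were Tnfrsf10b (difference 0.87, limma adjusted p = 0.10), Tnfsf14 (LIGHT, a ligand of activated T cells, 1.096, limma adjusted p = 0.13), Traf1 (0.62, limma adjusted p = 0.22) and Tnfrsf22 (0.39, limma adjusted p = 0.44). With normexp and with subtraction to a floor, the difference was 0.28 and 0.37 for Tnfrsf10b and 0.098 and 0.22 for Tnfsf14. It was 0.46 and 0.58 for Traf1 and 0.31 and 0.34 for Tnfrsf22. In Cy-5, Tnfsf14 was not well above background on C10-415 and C10-434, nor Tnfrsf10b on C10-434.

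Taken dye by dye, the 5 members differed in where the difference lay. They were chosen by their ratios on these same arrays, so a higher Cy-5 level was in part set by that choice. In Cy-5 alone all 5 were called higher on the slide of C10-424, Tnf by 1.36, Tnfsf14 by 1.30, Tnfrsf22 by 1.25, Tnfrsf10b by 1.11 and Traf1 by 0.79, with limma adjusted p from 0.0058 to 0.035. In this comparison 1005 of 18425 genes were called. In Cy-3 alone, which by every source is the same RNA on both slides, 1677 of 18425 genes were called. Tnfrsf22 (0.86) and Fasl (0.61) were among them. The Cy-3 levels of 4 of the 5 members did not overlap between the slides and were higher on that of C10-424. The share of all genes whose Cy-3 levels part in this way was not computed. In Cy-3, 22 of the 49 members had an unadjusted p under 0.05 (limma), and the share of all genes at that mark was not computed. The Cy-3 differences were 0.86 for Tnfrsf22 (limma adjusted p = 0.0027), 0.23 for Tnfrsf10b (0.0037), 0.17 for Traf1 (0.012) and 0.11 for Tnf (0.045), of which Tnfrsf22 alone reached the fold of 1.5. For Tnfsf14 the Cy-3 slides overlapped (0.20, limma adjusted p = 0.29). The other 2 probes of Tnfrsf10b were dimmer, and the mean over its 3 probes differed by -0.0079 between the slides.

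**Figure D5:**
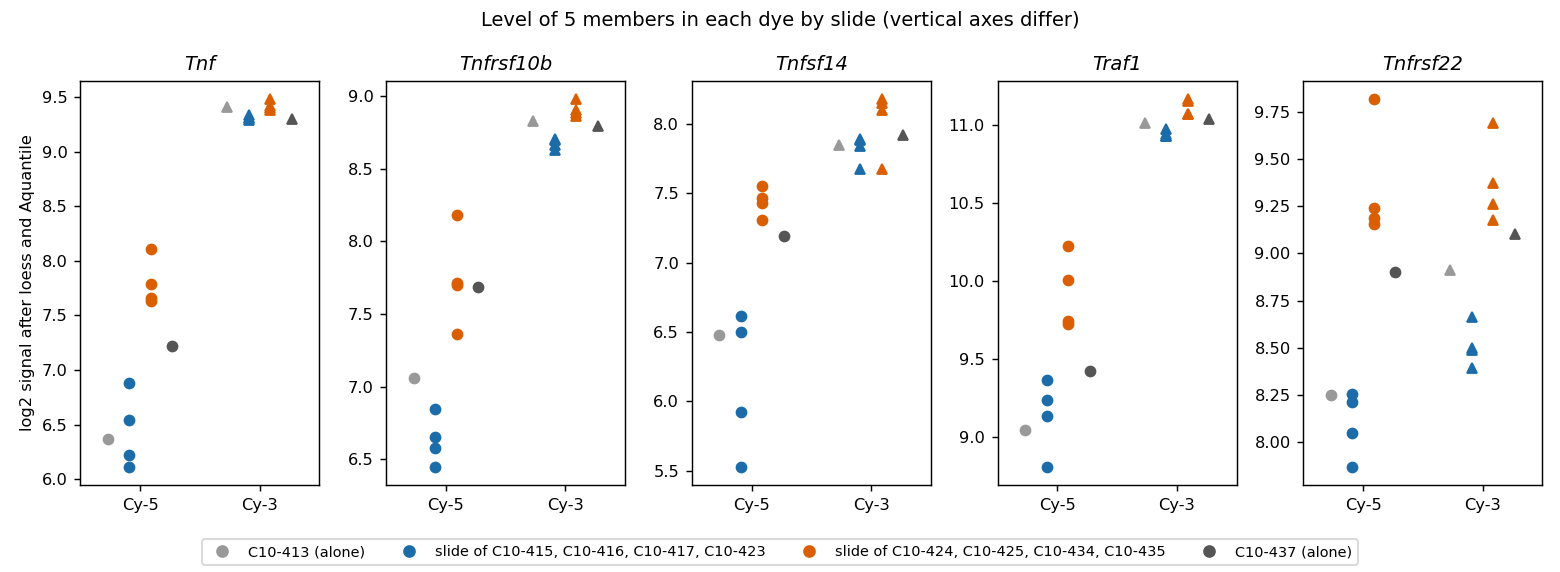
Level (log2 signal after loess within and Aquantile between arrays) in Cy-5 (circles) and Cy-3 (triangles) of the 5 members whose ratios did not overlap between the slides, by slide. Vertical axes differ between panels. In Cy-5 each of the 5 members is higher on all arrays of the slide of C10-424 (orange) than on the slide of C10-415 (blue), and the Cy-3 levels of Tnf, Tnfrsf10b, Traf1 and Tnfrsf22 part in the same way, by 0.11 to 0.86.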

How the data were processed

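The arrays were dual dye Agilent arrays, with hemibrain RNA in Cy-5 and a common RNA in Cy-3. The authors deposited 1 Feature Extraction file an array (version 10.10.1.1 per the file headers). The deposited signals are intensities per spot, already background-corrected and dye-normalized in the processed signals, and the deposited log10 ratio is Cy-5 over Cy-3. The authors also deposited a table of log2 ratios, which matched the log ratios of the same arrays with correlations of at least 0.997.

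From the processed signals, log2 Cy-5/Cy-3 was computed with loess within each array (span 0.3), without control spots and outlier-flagged spots. Probes were named through RefSeq accessions (GRCm38.p6), which matched 27198 of 41174 probes, and the brightest probe stood for a gene. Detection on an array, called well above background, needed that flag on at least 0.5 of a probe's spots. No gene spot was saturated. The number of arrays limits the precision. Ratios were tested against 0, and slide against slide, with limma 3.58.1 (R 4.3.3) and Benjamini-Hochberg adjustment over all genes. A bound on a fold uses the lowest signal among probes well above background. Tables and plots were made with Python 3.11.15, numpy 2.4.6, pandas 2.3.3 and matplotlib 3.10.9.

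Data were simulated for 18539 genes with independent normal noise, 100 genes changed by 1 and 100 by 1.5 (log2). Against 0, 93% and 98% of these were recovered, and 41% and 63% between slides. Unchanged genes called were 1 against 0 and 5 between slides. The spread was taken over all arrays, slide differences included. In the data 61.9% of genes were called against 0, so these rates need not hold there.

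The members and lists were chosen with earlier results of these data known. All members may be named. The values of all arrays are given for the 3 highest, the 3 lowest and the 3 most widely ranging members above background in both dyes on all arrays, and, chosen after their values were seen, for Tnf. From the pathway lists, at most 3 genes a direction were named. The alternatives were no loess, median centring, normexp (offset 50, on median signals, since the files used hold no mean signals), the authors' table, the mean of all probes, probes above background throughout, the adjusted p alone, a fold of 2, slide as a random block and leaving out each array. Subtraction with values under 0.5 set to 0.5, and each dye alone between slides, were added after seeing the data. Columns of p-values and errors of the single arrays were not used.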

Additional observations from a re-analysis of the deposited data

Results flagged for a closer look

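For 6 of the 49 members a single array stood apart from the other 9 by Dixon's gap test at the 95% level, which chance sets apart in about 1 of 20 members. The share of all genes set apart in this way was not computed. On C10-434, the array with the dimmest Cy-5 signal, this was so for 4 of them. Tnfsf10 gave -0.46 there, against -3.30 to -2.22 on the other arrays, Tnfrsf14 -1.15 against -4.04 to -2.53, Tnfrsf18 -2.39 against -4.08 to -3.23, and Tnfsf13b -3.10 against -1.99 to -1.22. Of these members, Tnfsf10 and Tnfrsf14 were above background in Cy-5 on no array and Tnfsf13b on 9 arrays, while Tnfrsf18 was above it on all 10. On C10-416, Fasl gave -0.91 against -0.00054 to 0.97, and Tnfsf9 -2.14 against -4.34 to -3.24. Both were above background in Cy-5 on 5 arrays. The part of the dim Cy-5 signal in these values was not tested.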

How the results depend on the processing

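Of the 37 members called between hemibrain and the common RNA, 24 had the same call under every alternative that tested them. None turned its direction. The alternative of probes above background in both dyes on all arrays tested only 19 members. Of these 16 were called, 12 of them lower, and the other members were not tested there. At a fold of 2, 3 members were higher. The median of the 19 members' own medians (-1.09) was -1.34 without loess and in the authors' table, -1.31 with median centring and -0.91 with normexp, and without each array it ran from -1.12 to -1.06. With normexp 21 members were lower and 4 higher. Scaling moved the median of all genes by less than 0.1. A few members that were not called crossed 0. Without loess, with median centring and in the authors' table, Tnfrsf11a was at -0.044, -0.046 and -0.044 and Tnfrsf4 at -0.21 in each. With the mean of all probes Tnfrsf11a was at -0.24. Without each array Tnfrsf4 ran from -0.019 to 0.080, below 0 without C10-435, and Tnfrsf8 from -0.082 to 0.020, above 0 without C10-434. Tnfsf8 was at -0.015 with normexp and -0.031 with subtraction to a floor.

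Between the slides, 0 members were called by limma with normexp, with subtraction to a floor, with probes detected in Cy-5 on all 8 arrays and without any 1 array (from 0 to 0). Only 19 members were tested with probes detected in Cy-5 on all 8 arrays. Tnf was not among them, so that setting could not call it. At an unadjusted p under 0.05 these settings held, in the order named, 1, 4, 2 and 5 to 7 members. With Cy-5 alone 5 members were called and with Cy-3 alone 2, against 1005 and 1677 of 18425 genes. No paired analysis was possible because the arrays form 1 group and their numbers pair no samples.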
